A study of Mus musculus with 8 samples.

Results

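The genes described here are 48 named genes whose products carry a cell into, through and out of mitosis, from the CDK1 and cyclin pair that starts it to the proteins that cut the daughter cells apart. They were chosen by name and function, with earlier results of these data known. All 48 were present among the 53392 genes of the deposited files, and all 48 passed the filter on low counts that 20097 genes passed. Their levels were compared in the cerebral cortex of newborn FVB/N mice (postnatal day 0), with 4 messenger RNA libraries labelled as R342X mutants and 4 labelled as wild type. R342X is a stop mutation in Phf6, a gene on the X chromosome whose nuclear product carries PHD-type zinc fingers, and the study asked how it changes cortical gene expression. The libraries came from pieces of whole cortex, so each level is a mean over all cell types in the piece. Animals, litters, sexes and batches are not named in the labels. If several libraries share an animal, the p-values below cover only library-to-library spread, part of which may be technical.

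In mitosis, CDK1 bound to cyclin A or B triggers entry, condensin and topoisomerase II shape the chromosomes, and kinetochores tie each chromosome to the spindle. The spindle checkpoint holds back the anaphase-promoting complex until all chromosomes are attached, and the central spindle and the contractile ring then divide the cell. In the newborn cortex most neurons have left the cell cycle, and the dividing cells are the remaining radial glia, intermediate progenitors, glial precursors and cells of the vessels, meninges and microglia. Transcripts of this group are made late in the cell cycle. Their promoters are known for the cell cycle homology region, a short element with the core TTTGAA, and for CCAAT boxes, which the factor NF-Y binds.

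Promoter sequences were taken from RefSeq (GRCm38.p6), which held an entry for 41 of the 48 genes. In the 250 bases before the start site, TTTGAA was present in 15 of the 41 promoters on either strand (36.6%), against 16.3% of 27025 promoters of that length. CCAAT was present in 29 of the 41 (70.7%), against 34.5% of all promoters. Both motifs were present in 14 of the 41 promoters (34.1%), against 5.73% of all promoters. The promoters of Mki67, Ncapd2, Top2a and Cdk1 are shown because they hold both motifs and because the levels of these genes are reported in full. Each line gives the 250 bases before the start, 5′ to 3′ on the strand of the gene, and capitals mark TTTGAA or its reverse complement TTCAAA, and CCAAT or its reverse complement ATTGG.
Mki67: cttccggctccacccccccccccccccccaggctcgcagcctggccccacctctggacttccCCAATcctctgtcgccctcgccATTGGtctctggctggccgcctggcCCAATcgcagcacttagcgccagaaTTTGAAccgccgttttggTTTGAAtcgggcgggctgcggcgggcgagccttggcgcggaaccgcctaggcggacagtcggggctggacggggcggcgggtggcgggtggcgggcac
Ncapd2: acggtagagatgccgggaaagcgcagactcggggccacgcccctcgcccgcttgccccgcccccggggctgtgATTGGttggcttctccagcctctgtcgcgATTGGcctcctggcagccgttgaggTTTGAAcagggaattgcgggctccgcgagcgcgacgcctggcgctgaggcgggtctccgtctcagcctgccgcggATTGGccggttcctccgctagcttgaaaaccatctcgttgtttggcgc
Top2a: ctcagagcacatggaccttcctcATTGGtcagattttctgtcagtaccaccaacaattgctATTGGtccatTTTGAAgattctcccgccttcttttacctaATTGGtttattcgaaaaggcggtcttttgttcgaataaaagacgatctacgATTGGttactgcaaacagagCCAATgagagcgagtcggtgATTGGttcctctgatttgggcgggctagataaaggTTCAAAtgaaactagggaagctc
Cdk1: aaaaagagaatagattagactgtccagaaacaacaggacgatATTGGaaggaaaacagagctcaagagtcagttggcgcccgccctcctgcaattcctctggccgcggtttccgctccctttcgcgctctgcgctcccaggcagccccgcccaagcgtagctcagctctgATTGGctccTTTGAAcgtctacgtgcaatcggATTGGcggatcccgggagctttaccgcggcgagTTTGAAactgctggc
All 4 lie on the minus strand, at chr7:135716380-135716629 (Mki67), chr6:125191587-125191836 (Ncapd2), chr11:99024190-99024439 (Top2a) and chr10:69352913-69353162 (Cdk1). The GENCODE M21 annotation of the same build places the outermost start of Ncapd2 at base 125191701 and that of Cdk1 at base 69352938, inside the stretches shown. Top2a had 6 CCAAT matches, and Mki67, Ncapd2 and Cdk1 had 3 each. A match is a description of the sequence and does not show that a factor binds there.

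Mutant libraries held 30469745 to 39453169 estimated reads and wild-type libraries 48841467 to 74266937, so the deepest mutant library was below the shallowest wild-type one. The 48 genes together took 16851 to 51970 reads per library. Phf6 was lower in every mutant, at 39.3 to 43.6 CPM (counts relative to library size, scaled by the TMM method) against 72.1 to 91.9 CPM in wild type. The libraries also fell into 2 sets that cross the genotypes. Along principal component 1 of the log2 CPM values of all genes except the mitotic ones, mutants 1 to 3 and wild type 1 stood on one side (set 1) and mutant 4 and wild types 2 to 4 on the other (set 2). This component held 35.1% of the variance. No label explains the sets, and because mutant 4 is the lone mutant of set 2 and wild type 1 the lone wild type of set 1, the values of these libraries are printed for each gene described in full. Of 8 markers of hindbrain, midbrain and cerebellum, 7 were below 1 TPM (a level per transcript length) in every library. The remaining one, Zic1, passed the filter, and the 8 summed to 22.2, 23.8, 44.4 and 32.4 TPM in mutants 1 to 4 and to between 21.5 and 27.8 TPM in wild types, so mutant 3 was highest.

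Summed over the 48 genes, the level was 428, 391, 412 and 544 TPM in mutants 1 to 4, and wild types 1 to 4 had 485, 501, 493 and 531 TPM. Mutants 1 to 3 were below all wild-type libraries and mutant 4 was above all of them. Mutants averaged 444 ± 68.6 TPM, and wild types averaged 503 ± 20.1 TPM (SD, n = 4 each), a difference smaller than the spread among mutants. Single genes ran from a mean of 0.83 TPM for Kif14, a motor of the midbody, to 55.7 TPM for Bub3, a checkpoint protein. In whole tissue, fewer dividing cells and less of these transcripts per dividing cell cannot be told apart.

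**Figure D1:**
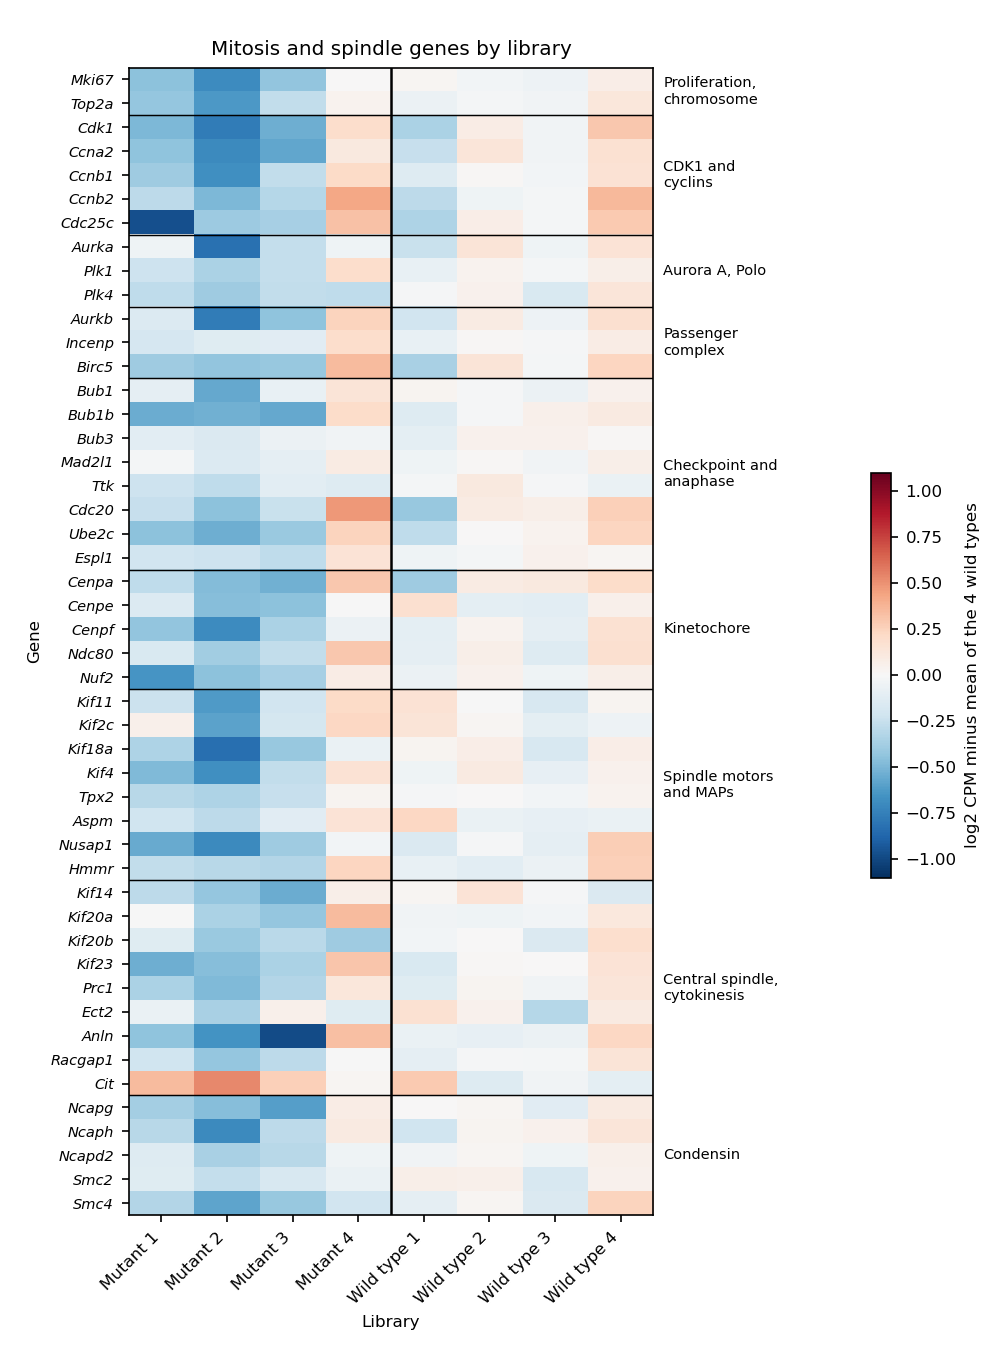
Level of each of the 48 genes (rows, grouped by role) in each library (columns), as log2 CPM minus the mean of the 4 wild types, from blue (lower) to red (higher). Mutants 1 to 3 are blue for nearly every gene, mutant 4 is not, and Cit is the gene that is red in mutants 1 to 3.

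Over all 8 libraries, 47 of the 48 genes had a log2 fold change below 0 (mutant over wild type), with a median of -0.23, while 49.7% of all genes tested were below 0 with a median of 0.00. The values ran from -0.41 for Nusap1 to 0.29 for Cit, which was the gene above 0. None of the 48 was called at a Benjamini-Hochberg adjusted p under 0.05 by edgeR's quasi-likelihood test, in a comparison that called 0.0199% of all genes lower and 0% higher. At an unadjusted p under 0.05, 14 of the 48 were lower, against 6.84% of all genes, and Cit was higher, against 6.89% of all genes. DESeq2 called 1 of the 48, Smc4 (adjusted p = 0.0331), against 1.15% of the 15419 genes with an adjusted p called lower and 1.48% higher. Standard errors (SE) of the 48 folds ran from 0.05 for Bub3 to 0.24 for Cdc25c, the phosphatase that activates CDK1.

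The low libraries were the same for most of the 48 genes. Mutants 1 to 3 were below all 4 wild types for 36 genes, a pattern found in 9.93% of all genes, and mutant 2 was the lowest mutant for 35 genes, against 21.9% of all genes. Mutant 4 was above the other 3 mutants for 43 genes, against 34.6% of all genes, and below them for Cit alone, against 36.3%. Wild type 1 was above mutants 1 to 3 for 40 genes (28.5% of all genes) and the lowest wild type for 25 (37.1%). Mutant 4 was above all 4 wild types for 22 genes (20.5% of all genes), within their range for 21 (57%) and below them for 5 (22.5%). The 5 were Plk4, Ttk, Kif20b, Ncapd2 and Smc4. All 4 mutants were below all 4 wild types for 4 genes, namely Plk4, Ttk, Ncapd2 and Smc4, against 3.2% of all genes.

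Mki67, the nuclear protein of dividing cells used as a marker of proliferation, and Top2a, the topoisomerase that untangles sister chromatids, had lower levels in mutants 1 to 3 than in any wild type. Mki67 was at 34.9, 29.6, 35.4 and 47.9 CPM in mutants 1 to 4 and at 48.3, 46.7, 45.8 and 50.1 CPM in wild types 1 to 4. Levels in mutants 1 to 3 lay well below the narrow wild-type range, and mutant 4 lay inside it. The means were 36.9 ± 7.77 and 47.7 ± 1.92 CPM (SD, n = 4 each, as in all means below), and the log2 fold change of -0.37 ± 0.12 (SE) did not pass the test (adjusted p = 0.263 by edgeR). Top2a was at 41.3, 35.8, 45.9 and 56.9 CPM in mutants and at 53.1, 54.6, 54.0 and 60.5 CPM in wild types. Mutants had the same order as for Mki67, with mutant 4 inside the wild-type range, and the log2 fold change was -0.31 ± 0.12 (SE, adjusted p = 0.319 by edgeR).

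The CDK1 group holds the kinase Cdk1, the cyclins Ccna2, Ccnb1 and Ccnb2 and the phosphatase Cdc25c, and all 5 had a log2 fold change below 0, with a median of -0.31. Cdk1 was at 9.06, 7.46, 8.77 and 14.5 CPM in mutants 1 to 4 and at 9.98, 13.5, 12.4 and 15.7 CPM in wild types 1 to 4. Wild type 1 was close to mutants 1 to 3, and mutant 4 was above 3 of the 4 wild types, so the level followed the library sets as well as the genotype. Its log2 fold change was -0.37 ± 0.20 (SE, adjusted p = 0.42 by edgeR). Ccna2, the cyclin of late S phase and mitotic entry, was at 17.2, 14.4, 15.7 and 25.1 CPM in mutants and at 19.6, 25.6, 22.7 and 26.2 CPM in wild types. Here too wild type 1 was the lowest wild type and mutant 4 the highest mutant, and the log2 fold change was -0.38 ± 0.16 (SE, adjusted p = 0.351 by edgeR). Ccnb1, Ccnb2 and Cdc25c had log2 fold changes of -0.25, -0.14 and -0.31, and for all 3 mutant 4 was above every wild type.

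All 3 Aurora A and Polo kinases had a log2 fold change below 0, with a median of -0.27. Plk4, the kinase that starts centriole duplication (chr3:40800019-40816883, plus strand), was at 6.82, 6.32, 6.87 and 6.85 CPM in mutants 1 to 4 and at 8.22, 8.55, 7.39 and 9.10 CPM in wild types 1 to 4. The 4 mutants lay close together, mutant 4 with them, and below every wild type. The means were 6.71 ± 0.262 and 8.32 ± 0.715 CPM, so mutants held 80.7% of the wild-type mean. The log2 fold change was -0.31 ± 0.09 (SE, adjusted p = 0.244 by edgeR). Plk1, the Polo kinase of mitotic entry and spindle assembly, was at 6.40, 5.87, 6.26 and 8.56 CPM in mutants and at 7.08, 7.70, 7.37 and 7.83 CPM in wild types. Again the first 3 mutants were below all wild types and mutant 4 above them, with a log2 fold change of -0.15 ± 0.12 (SE, adjusted p = 0.578 by edgeR). Aurka, which acts at the spindle poles, ran from 2.97 to 5.08 CPM in mutants and from 4.42 to 5.83 CPM in wild types, and these ranges overlapped.

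The chromosomal passenger complex corrects wrong attachments at the centromere and then moves to the central spindle. Its kinase Aurkb was at 6.15, 4.01, 5.02 and 8.09 CPM in mutants 1 to 4 and at 5.89, 7.27, 6.58 and 7.70 CPM in wild types 1 to 4. The groups overlapped, with mutant 4 the highest and mutant 2 the lowest of the 8 libraries. The log2 fold change was -0.24 ± 0.19 (SE, adjusted p = 0.564 by edgeR). Incenp, the scaffold of the complex, was at 21.3, 22.1, 22.2 and 27.7 CPM in mutants and at 22.9, 24.6, 24.1 and 25.7 CPM in wild types. Mutant 4 stood apart above all other libraries, and the log2 fold change of -0.06 ± 0.09 (SE, adjusted p = 0.759 by edgeR) turned to 0.05 with the library set as a term. Birc5 (survivin), the third listed subunit, was at 5.21 to 5.37 CPM in mutants 1 to 3 and at 8.97 CPM in mutant 4, against 5.52 to 8.33 CPM in wild types.

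The 8 genes of the spindle checkpoint and anaphase had the smallest differences of the role groups, with a median log2 fold change of -0.13, and none had an unadjusted p under 0.05. Ttk, the kinase (MPS1) at the head of the checkpoint, was at 4.97, 4.79, 5.35 and 5.25 CPM in mutants 1 to 4 and at 5.73, 6.25, 5.75 and 5.51 CPM in wild types 1 to 4. The groups did not overlap, mutant 4 included, but the gap was narrow, and the log2 fold change was -0.19 ± 0.09 (SE, adjusted p = 0.38 by edgeR). Bub3, the gene of the 48 with the highest level, was at 61.1, 59.5, 63.4 and 64.4 CPM in mutants and at 61.4, 68.7, 68.6 and 66.8 CPM in wild types. Wild type 1 lay among the mutants, and mutants held 93.6% of the wild-type mean. Its log2 fold change was -0.10 ± 0.05 (SE, adjusted p = 0.424 by edgeR). Bub1b (BUBR1), an inhibitor of the anaphase-promoting complex, was at 8.24 to 8.44 CPM in mutants 1 to 3, at 14.0 CPM in mutant 4 and at 11.0 CPM or more in wild types. Cdc20, the activator of that complex, and Mad2l1, which holds Cdc20 inactive, had log2 fold changes of -0.09 and -0.04. Cdc20 was highest in mutant 4, at 17.7 CPM, against 9.57 to 15.3 CPM in wild types.

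Of the kinetochore genes, Cenpf and Cenpa behaved differently. Cenpf, a large protein of the outer kinetochore, was at 16.4, 13.7, 17.4 and 21.1 CPM in mutants 1 to 4 and at 20.5, 22.7, 20.6 and 24.8 CPM in wild types 1 to 4. Mutants 1 to 3 were below all wild types and mutant 4 was at the lower end of the wild-type range. The log2 fold change was -0.37 ± 0.12 (SE, adjusted p = 0.262 by edgeR). Cenpa, the histone H3 variant that marks centromeres, was at 10.6, 9.26, 8.93 and 15.8 CPM in mutants and at 9.84, 13.7, 13.9 and 14.8 CPM in wild types. Here wild type 1 lay among mutants 1 to 3 and mutant 4 was above all wild types, and the log2 fold change of -0.23 ± 0.19 (SE, adjusted p = 0.578 by edgeR) became 0.07 with the library set as a term. Nuf2 and Ndc80, partners in the complex that grips microtubules, had log2 fold changes of -0.32 and -0.11, and Cenpe, the kinetochore motor, had -0.26.

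All 8 genes of spindle motors and microtubule proteins had a log2 fold change below 0, with a median of -0.20. Nusap1, which bundles microtubules near chromosomes, was at 7.02, 6.32, 7.86 and 10.1 CPM in mutants 1 to 4 and at 9.23, 10.2, 9.64 and 12.4 CPM in wild types 1 to 4. It had the lowest fold of the 48, with mutants at 75.4% of the wild-type mean, and mutant 4 lay within the wild-type range. The log2 fold change was -0.41 ± 0.15 (SE, adjusted p = 0.297 by edgeR). Tpx2, which activates Aurora A on the spindle, was at 17.6, 17.1, 18.1 and 22.1 CPM in mutants and at 21.5, 21.7, 21.2 and 22.2 CPM in wild types. The 4 wild types were nearly equal and mutant 4 was among them. Its log2 fold change was -0.21 ± 0.08 (SE, adjusted p = 0.323 by edgeR). The motors Kif11, Kif2c, Kif18a and Kif4 had log2 fold changes of -0.19, -0.09, -0.39 and -0.28. Aspm, a spindle pole protein whose loss in humans gives a small brain, had -0.12 and Hmmr had -0.16.

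**Figure D2:**
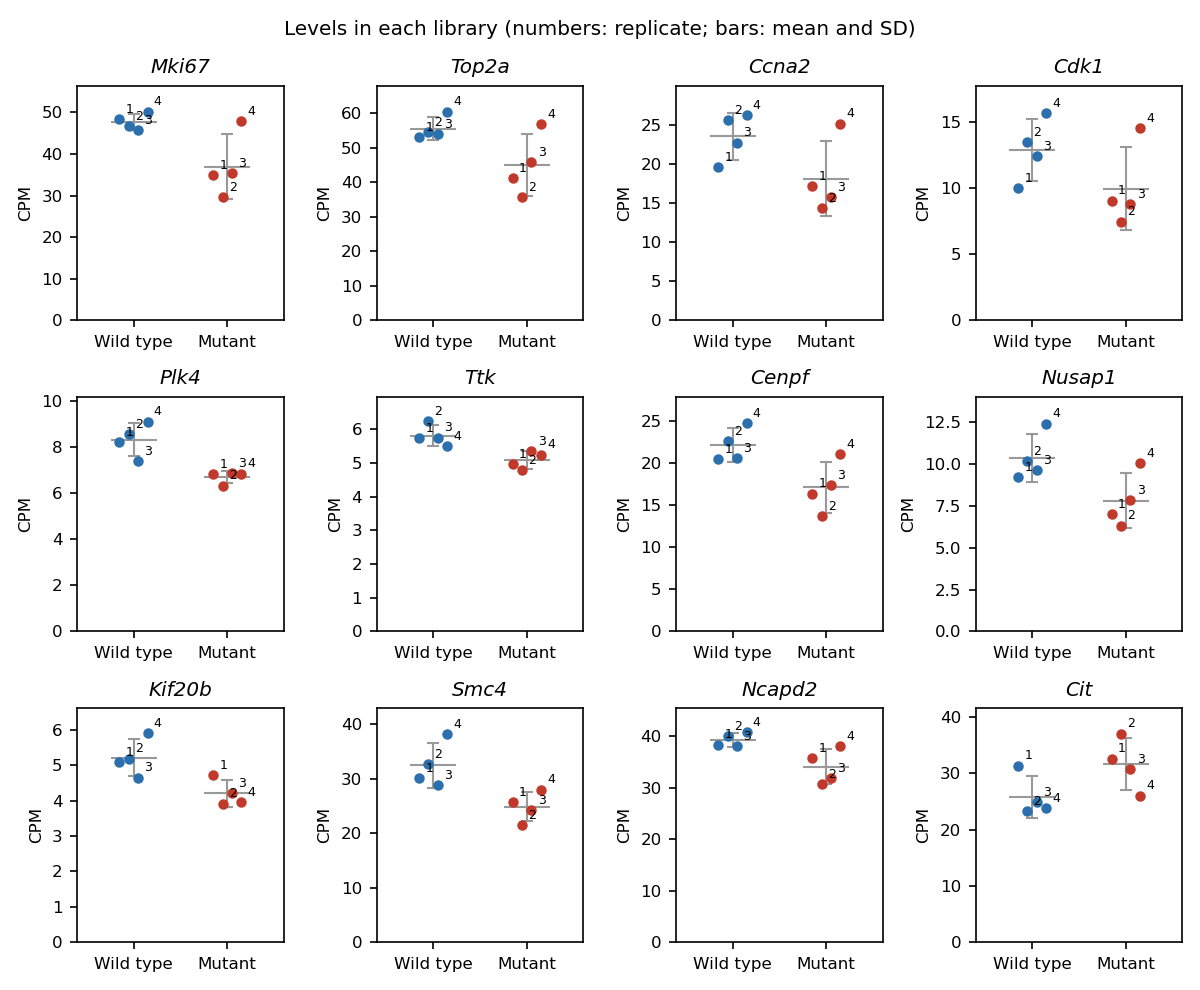
CPM (vertical axes, starting at 0) of 12 of the 48 genes in the 4 wild-type (blue) and 4 mutant (red) libraries, with the replicate number beside each point and the mean and SD as bars. Mutant 4 is the highest mutant for Mki67, Top2a, Ccna2, Cdk1, Cenpf, Nusap1, Smc4 and Ncapd2 and the lowest for Cit.

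Of the 9 genes of the central spindle and cytokinesis, 8 had a log2 fold change below 0 and Cit was above 0. Kif20b, a motor needed for the last step of cell separation, was at 4.72, 3.91, 4.22 and 3.95 CPM in mutants 1 to 4 and at 5.07, 5.18, 4.65 and 5.90 CPM in wild types 1 to 4. Mutant 4 was low with the other mutants, and the overlap came from mutant 1, which was just above wild type 3. The log2 fold change was -0.31 ± 0.11 (SE, adjusted p = 0.297 by edgeR). Racgap1, which with Kif23 forms the centralspindlin complex, was at 31.8, 27.4, 30.2 and 36.9 CPM in mutants and at 34.5, 36.5, 36.3 and 40.7 CPM in wild types. Mutant 4 was within the wild-type range, and the log2 fold change was -0.23 ± 0.09 (SE, adjusted p = 0.319 by edgeR). Anln (anillin), which organises the contractile ring, had the widest gap among mutants: 3.31 to 4.84 CPM in mutants 1 to 3 and 8.26 CPM in mutant 4, a difference of 1.02 in mean log2 CPM. Kif23, Prc1 and Kif14 had log2 fold changes of -0.23, -0.24 and -0.28, and Kif20a and Ect2 had -0.07 and -0.13.

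Cit (chr5:115845278-116008947, plus strand) encodes citron kinase, which holds the midbody together at the end of cytokinesis, and neurons make a shorter citron form without the kinase domain. It was at 32.6, 37.1, 30.8 and 26.0 CPM in mutants 1 to 4 and at 31.4, 23.2, 24.9 and 23.8 CPM in wild types 1 to 4. Mutants 1 to 3 and wild type 1 were the high libraries, which are those of set 1, and mutant 4 and wild types 2 to 4 were the low ones. The means were 31.6 ± 4.57 and 25.8 ± 3.77 CPM, and the log2 fold change of 0.29 ± 0.12 (SE, adjusted p = 0.334 by edgeR) was 0.10 with the library set as a term. Of 19 listed transcripts of Cit, 4 had a mean of at least 0.5 TPM. The main one, the protein-coding Cit-201 of 9514 bases, was at 5.15, 5.91, 4.67 and 3.64 TPM in mutants and at 4.73, 3.33, 3.47 and 3.33 TPM in wild types. Its difference did not pass an exact two-sided permutation test over 70 assignments (p = 0.0857, or 0.171 after adjustment for the 4 transcripts), a test that can go no lower than 0.0286. Cit-201 made up 48.5 ± 5.64% of Cit TPM in mutants and 45.7 ± 4.29% in wild types (exact permutation p = 0.486, adjusted p = 0.6). Of the estimated reads of Cit it held 80.1 ± 2.95% in mutants and 79.0 ± 1.59% in wild types. TPM divides by length and so weighs up short transcripts such as Cit-211, of 699 bases. Salmon shares reads among overlapping transcripts by a model, so these shares depend on one another.

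All 5 condensin genes, which compact chromosomes, had a log2 fold change below 0, with a median of -0.28, and 3 of them had an unadjusted p under 0.05. Smc4 (chr3:69004738-69034623, plus strand), an ATPase of the core of the ring, was at 25.8, 21.5, 24.2 and 28.0 CPM in mutants 1 to 4 and at 30.1, 32.7, 28.8 and 38.2 CPM in wild types 1 to 4. The groups did not overlap, and mutant 4, the highest mutant, was just below wild type 3. The means were 24.9 ± 2.70 and 32.5 ± 4.15 CPM, so mutants held 76.6% of the wild-type mean. Smc4 had the smallest p of the 48, with a log2 fold change of -0.38 ± 0.10 (SE, adjusted p = 0.222 by edgeR and 0.0331 by DESeq2). Ncapd2, a regulatory subunit, was at 35.6, 30.6, 31.8 and 38.0 CPM in mutants and at 38.3, 39.9, 38.0 and 40.8 CPM in wild types. Mutant 4 and wild type 3 were equal to 3 digits, so the separation of the groups was marginal, and the log2 fold change was -0.21 ± 0.07 (SE, adjusted p = 0.283 by edgeR). Smc2, the partner of Smc4, had a log2 fold change of -0.16, and Ncapg and Ncaph had -0.32 and -0.28.

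The authors' deposited table gave an adjusted p under 0.05 to 2 of the 48 genes, both lower in mutants, against 1.32% of its 14991 genes with an adjusted p called lower and 1.46% higher. In the authors' deposited table the log2 fold change of Kif20b was -0.61 (adjusted p = 0.00569) and that of Smc4 was -0.27 (adjusted p = 0.0312). The authors' deposited table gave 34 of the 48 genes a log2 fold change below 0, against 47 in the edgeR fit over all 8 libraries. Some genes therefore differed in sign: Cdc20 was at 0.06 there and -0.09 in the edgeR fit, and Cenpa at 0.02 and -0.23. With the library set as a term, edgeR put 38 of the 48 below 0, and Cdc20 was at 0.23 and Cenpa at 0.07. The signs of these 2 genes were then those of the authors' deposited table. Whether the folds of the authors' deposited table were shrunk is not stated, and they are not on the scale of the folds above: Anln was at -0.01 there against -0.36 above, and Kif20b at -0.61 against -0.31. Both called genes are among the 5 for which mutant 4 was below all wild types.

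Mutant 4 weighed heavily on the result. Without it, edgeR called 16 of the 48 genes, all lower, against 1.78% of all genes called lower and 1.8% higher, and the median log2 fold change was -0.36. The 16 were Mki67, Top2a, Cdk1, Ccna2, Bub1b, Cenpf, Nuf2, Kif4, Tpx2, Nusap1, Kif23, Prc1, Anln, Racgap1, Ncapg and Smc4. Among them Mki67 had a log2 fold change of -0.52 (adjusted p = 0.0139 by edgeR), Ccna2 -0.58 (adjusted p = 0.0318 by edgeR) and Cdk1 -0.61 (adjusted p = 0.0488 by edgeR). Plk4, whose level in mutant 4 was that of the other mutants, was at -0.32 and was not called (adjusted p = 0.0846 by edgeR). Without mutant 4, all mutants belong to set 1 and 3 of the 4 wild types to set 2, so genotype and library set can be told apart through wild type 1 alone.

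When the library set was added to the model, edgeR called none of the 48, against 0.363% of all genes called lower and 0.239% higher. The median log2 fold change was then -0.11, and 38 of the 48 were below 0. Of the genes low in mutant 4, Plk4 was then at -0.29 and Smc4 at -0.29 (adjusted p = 0.185 and 0.174 by edgeR), and Kif20b at -0.32. Mki67 was at -0.26 (adjusted p = 0.25 by edgeR) and Cdk1 at -0.08 (adjusted p = 0.806 by edgeR).

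**Figure D3:**
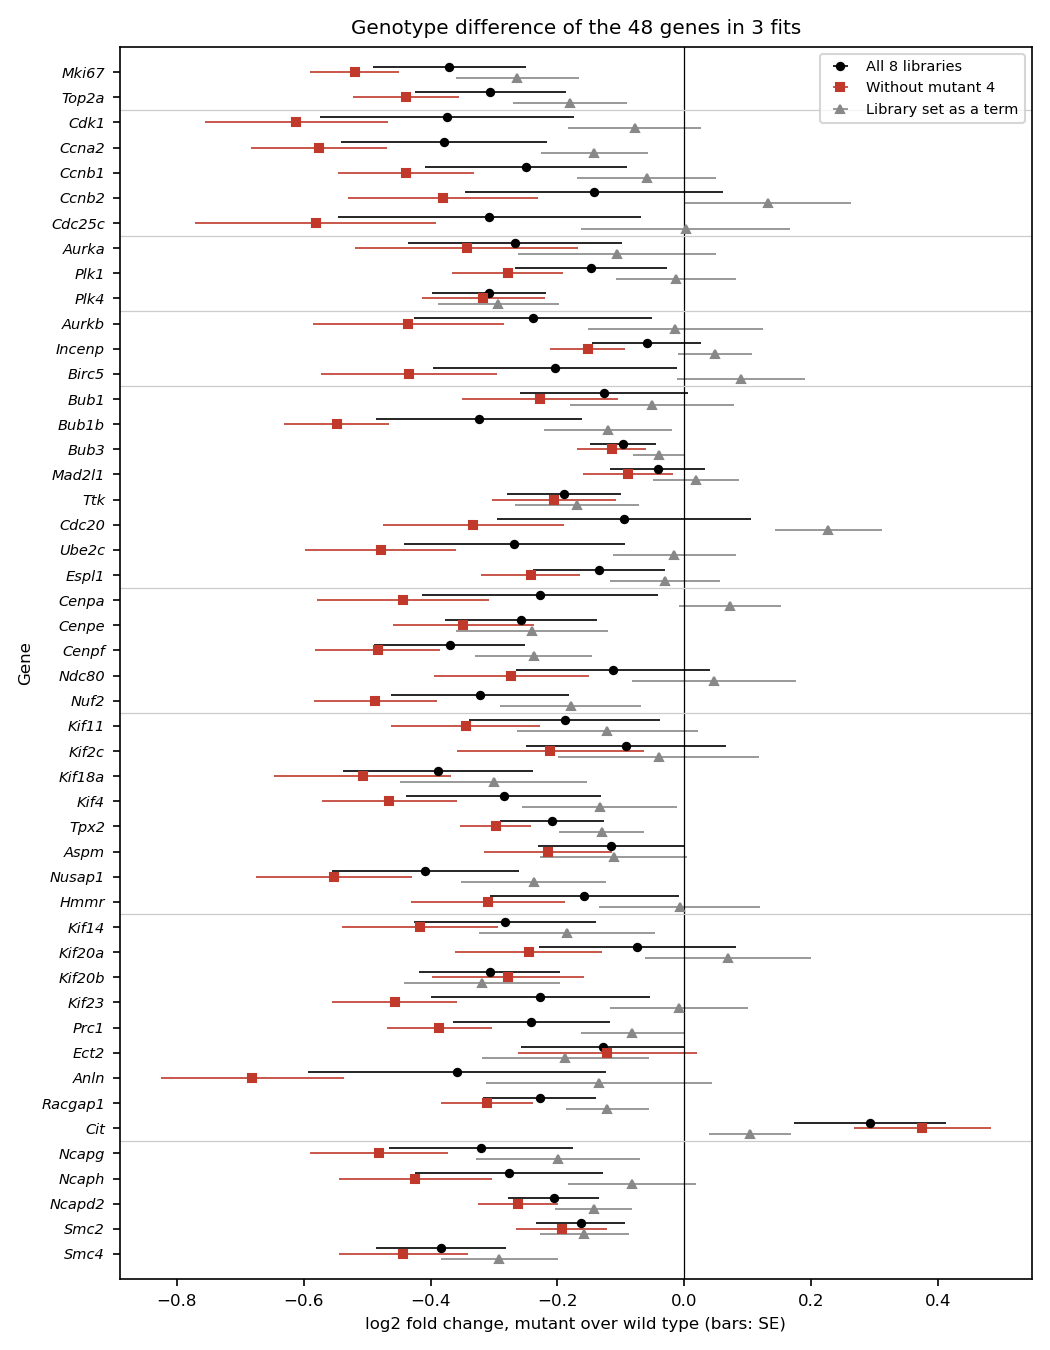
Log2 fold change of each of the 48 genes, mutant over wild type, with SE as bars, over all 8 libraries (black), without mutant 4 (red) and with the library set as a term (grey). The medians are -0.23, -0.36 and -0.11, and Plk4, Ttk and Kif20b change little between the 3 fits.

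Within set 1, the mean of mutants 1 to 3 was below wild type 1 for 46 of the 48 genes, with a median difference of -0.26 in log2 CPM, against 50.6% of all genes. The exceptions were Cdc20 at 0.10 and Cit at 0.09. Within set 2, mutant 4 was below the mean of wild types 2 to 4 for 13 of the 48 genes, with a median of 0.08, against 52.3% of all genes. These 13 were Aurka, Plk4, Bub3, Ttk, Cenpf, Kif18a, Nusap1, Kif20b, Ect2, Racgap1, Ncapd2, Smc2 and Smc4. Kif20b had the lowest difference in set 2, at -0.40, followed by Plk4 at -0.28 and Smc4 at -0.24, while Mki67 was at 0.01 and Cdk1 at 0.08. Each set holds a single library of 1 genotype, so neither difference was tested, nor was the difference between the sets.

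**Figure D4:**
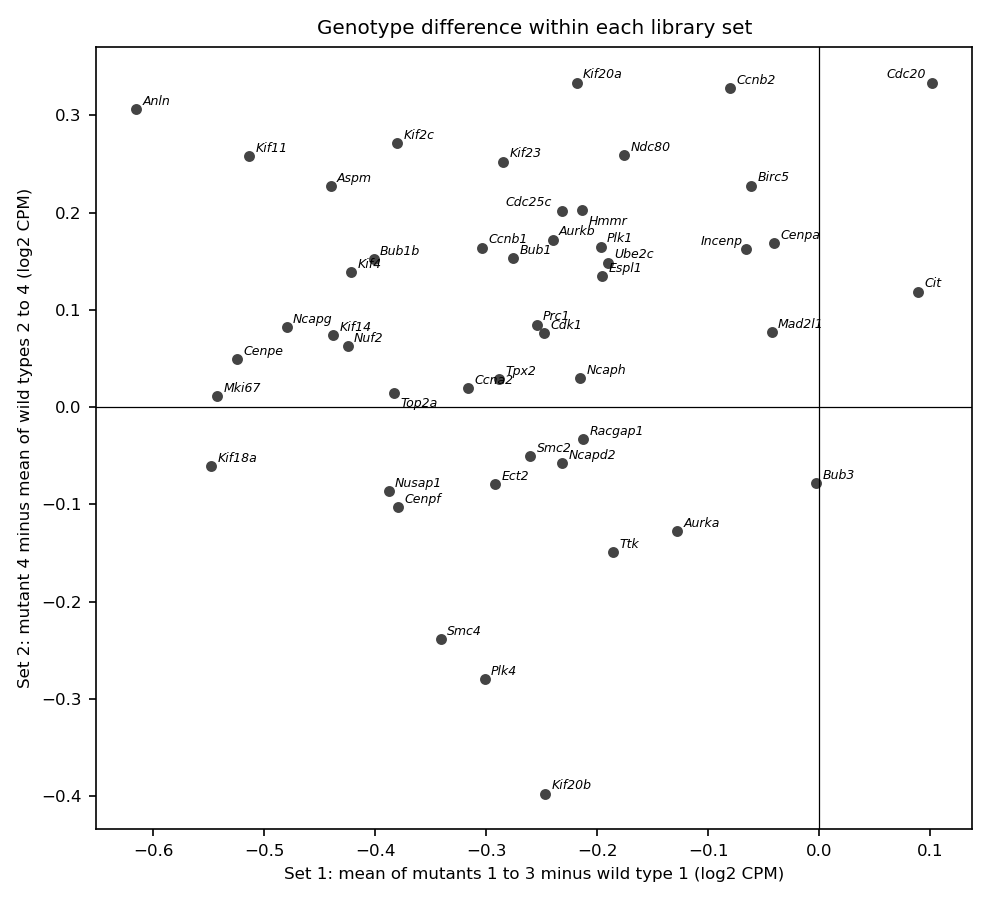
Each of the 48 genes by its mutant minus wild-type difference in log2 CPM within set 1 (horizontal axis, mutants 1 to 3 against wild type 1) and within set 2 (vertical axis, mutant 4 against wild types 2 to 4). In set 1, 46 genes lie left of 0, and in set 2, 13 lie below 0, with Kif20b lowest at -0.40.

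The lists of cell type markers differed in which libraries were high or low. The 48 genes had a mean log2 level, centred gene by gene on the 8 libraries, of -0.16, -0.34, -0.20 and 0.23 in mutants 1 to 4 and 0.04, 0.14, 0.06 and 0.24 in wild types 1 to 4. Intermediate progenitor markers, such as Eomes and Neurog2, were at -0.18, -0.28, -0.01 and -0.06 in mutants and 0.20, 0.10, 0.12 and 0.12 in wild types, so here mutant 4 was low with the other mutants. The 9 markers of that list summed to 126 to 145 TPM in mutants and 154 to 166 TPM in wild types, 7 of 8 tested had a log2 fold change below 0 and none was called, none was at 0 and Neurog1 was below 1 TPM throughout. Radial glia markers, such as Sox2 and Pax6, were at -0.14, -0.15, -0.01 and 0.06 in mutants and -0.03, 0.11, 0.09 and 0.07 in wild types. All 10 were above 0, they summed to 2180 to 2285 TPM in mutants and 2138 to 2411 TPM in wild types, and 9 of 10 had a log2 fold change below 0, none of them called. Oligodendrocyte precursor markers followed the sets, at 0.25, 0.28, 0.15 and -0.14 in mutants and 0.19, -0.24, -0.18 and -0.31 in wild types. Their 6 markers, none at 0, summed to 127 to 167 TPM in mutants and 110 to 162 TPM in wild types. Astrocyte markers were at 0.16, 0.26, 0.17 and -0.05 in mutants and 0.02, -0.15, -0.07 and -0.35 in wild types, the reverse of the order of the mitotic genes in mutants, and the 6 markers, none at 0, summed to 860 to 998 TPM in mutants and 668 to 810 TPM in wild types. Neuron markers ran from -0.07 to 0.06 over the 8 libraries. Microglia markers were at 0.01, 0.05, 0.25 and 0.03 in mutants and -0.02, -0.17, -0.01 and -0.12 in wild types, and the 6 markers, none at 0, summed to 88.7 to 104 TPM and 74.2 to 86.3 TPM. All 4 mutants were thus above all 4 wild types. None of the 6 microglia and 6 oligodendrocyte precursor markers had a log2 fold change below 0. Of the 6 astrocyte markers 1 did, and no marker of these 3 lists was called. Interneuron and ganglionic eminence markers overlapped between genotypes, at -0.13 to 0.10 in mutants and -0.10 to 0.12 in wild types. Red blood cell markers varied within both genotypes, at 0.28, -0.23, -0.41 and 0.58 in mutants and -1.22, 1.07, -0.61 and 0.53 in wild types. Mutant 4 had the highest level of endothelial and pericyte markers, at 0.28, and of meningeal markers, at 0.47. Their 7 and 6 markers, none of them at 0, summed to 275 and 584 TPM in mutant 4, against 212 to 233 and 351 to 434 TPM in mutants 1 to 3. The part of these cell types in the levels of the 48 genes was not tested. Reads of the 48 genes assigned to transcripts with a retained intron made up 4.44% to 4.98% in the libraries of set 1 and 5.37% to 5.56% in those of set 2. Over all genes the libraries split in the same way, at 3.67% to 3.87% in set 1 and 4.05% to 4.22% in set 2, and the part of this library-wide difference was not tested. The leading transcript was protein coding for 46 of the 48 genes and held at least 50% of the TPM of 37.

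**Figure D5:**
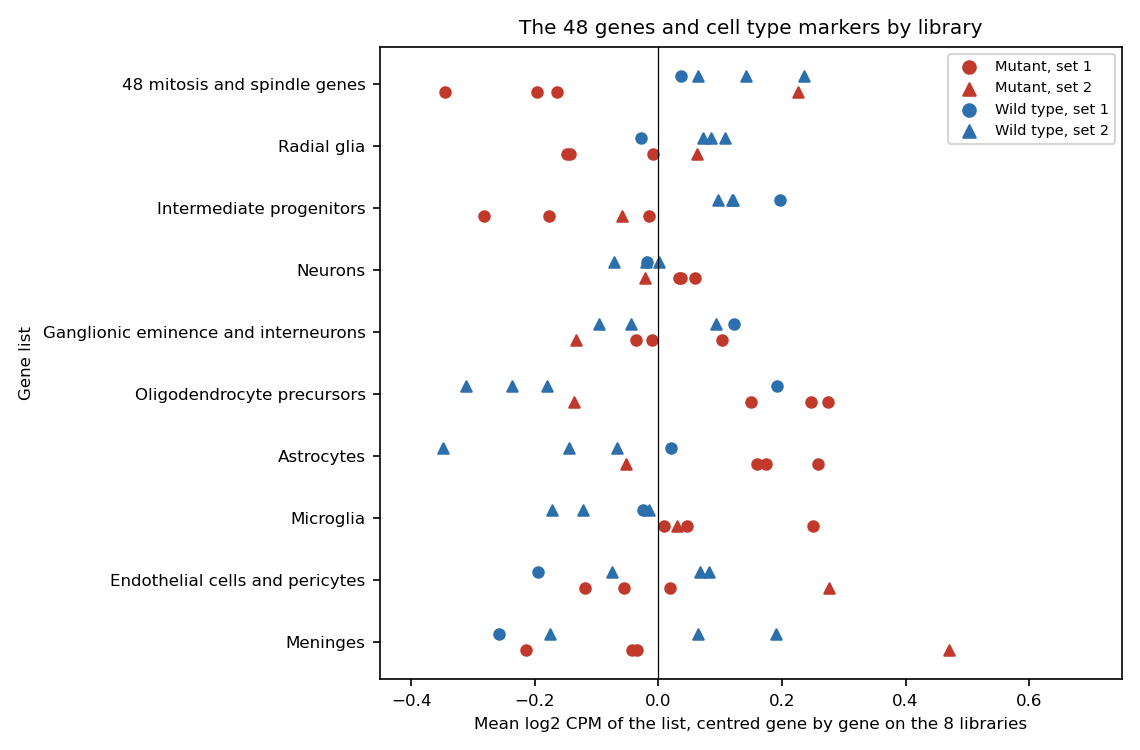
Mean log2 CPM of each gene list, centred gene by gene on the 8 libraries (horizontal axis), for mutants (red) and wild types (blue), with circles for set 1 and triangles for set 2. For the 48 genes and the radial glia markers the mutant of set 2 lies with the wild types. For the radial glia markers mutant 3, of set 1, also lies within the wild-type range, at -0.01 against -0.03 in wild type 1. For the intermediate progenitor markers all 4 mutants lie below all 4 wild types, and for the microglia markers all 4 mutants lie above all 4 wild types. For the meningeal markers the mutant of set 2 is highest at 0.47.

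Of 104 other genes of the same machinery and its regulators, edgeR called none, against 0.0199% of all genes, 79 had a log2 fold change below 0, against 49.7% of all genes, and the median was -0.15. At an unadjusted p under 0.05, 14 were lower and none higher, against 6.84% and 6.89% of all genes. The 34 other centromere and kinetochore genes had a median of -0.18, and the lowest among them was Hjurp, the chaperone that loads Cenpa, at -0.85 ± 0.28 (SE, adjusted p = 0.262 by edgeR). Hjurp was at 24.0, 23.6, 22.9 and 31.6 CPM in mutants 1 to 4 and at 28.0, 28.8, 61.9 and 65.5 CPM in wild types 1 to 4, so its fold came from wild types 3 and 4. The 18 other kinases, phosphatases and cohesion guardians had a median of -0.20, with the mitotic kinase Pbk at -0.43 ± 0.14 (SE, adjusted p = 0.254 by edgeR), and the 21 other spindle and cytokinesis genes had a median of -0.24, with Shcbp1, a midbody protein, at -0.43 ± 0.13 (SE, adjusted p = 0.247 by edgeR). The 14 subunits and regulators of the anaphase-promoting complex, many of which are also made outside mitosis, had a median of -0.03, and Cdc26 was at -0.14 ± 0.07 (SE, adjusted p = 0.37 by edgeR). For the 3 condensin II genes listed, which leave out the core pair Smc2 and Smc4, the median was 0.00, with Ncaph2 at -0.04. The 5 condensin genes above, which include Smc2 and Smc4, had -0.28, so the 2 medians do not compare whole complexes. Of 14 transcription factors and cofactors of mitotic genes, 7 were below 0. Nfyb, a subunit of the CCAAT-binding factor NF-Y, was at 48.1 to 53.8 CPM in mutants and 54.8 to 61.3 CPM in wild types, which did not overlap, with a log2 fold change of -0.18 ± 0.06 (SE, adjusted p = 0.25 by edgeR). Without mutant 4, edgeR called 11 of the 104, all lower, against 1.78% of all genes called lower and 1.8% higher, and 7 of these were among the other spindle and cytokinesis genes. With the library set as a term none of the 104 was called, against 0.363% of all genes lower and 0.239% higher. Their median was then -0.04, with 79 below 0. Within set 1, 79 were below 0 (50.6% of all genes), with a median of -0.11. Within set 2, 57 were below 0 (52.3% of all genes), with a median of -0.02.

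Set beside the promoter motifs, the 14 genes with both had a median log2 fold change of -0.20 and the 11 with neither had -0.31. Mutant 4 minus the mean of mutants 1 to 3 had a median of 0.51 in log2 CPM in both. The 11 include Plk4 and Kif20b, which were low in mutant 4, as well as Nuf2 and Anln, whose level in mutant 4 was above every wild type. No difference between these groups of promoters was tested.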

How the data were processed

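Each library file holds, per the file headers, an estimated count (expected count) and a TPM value for each transcript. The tools named in the submitters' processing notes are Salmon 0.12.0 and DESeq2, with GRCm38 as build. For strand, bias options and read filters the status is: not given in the sources used here. Columns of the authors' deposited table are, per the file headers, a mean normalized signal, a log2 fold change, its SE, the p-value and an adjusted p-value. Its model: not given in the sources used here.

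Estimated counts of 136202 transcripts were summed per symbol and gene and rounded to whole numbers. The genotype fit used edgeR 4.0.16 (R 4.3.3, filterByExpr, TMM, quasi-likelihood F test, genotype alone, two-sided), and Benjamini-Hochberg adjustment ran over all genes tested, with 0.05 as threshold. Log2 levels of single libraries use a prior count of 2. The fit was tested on simulated counts, drawn gene by gene without library sets, so that test does not cover their effect. Alternatives were DESeq2 1.42.0, limma 3.58.1 on log2 TPM plus 0.5 or 0.1, other filters, the library set as a term, the replicate number as a block, and each library left out. The library set was taken from the data, from the sign of the first principal component without the 48 genes and the 104 other mitotic genes.

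The members, lists and tests were chosen with earlier results of these data known. Named with full values were, in each role group, the gene with the smallest p and the one with the highest mean TPM (if the same, also the next smallest p), any called gene and Cit. From each other list the gene with the smallest p was named. Promoters were printed for at most 4 fully described genes with both motifs. Further genes were named after their values were seen. Total reads limit the precision of genes of few reads. The SE also depends on the spread among libraries: Kif14, at 90.3 to 287 reads, had an SE of 0.14. Cdk1, at 229 to 1019 reads, had 0.20. The result of 1 list of cortical markers is not reported here.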

Additional observations from a re-analysis of the deposited data

Results flagged for a closer look

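In groups of 4 libraries, 1 library stood far from the other 3 in 13 of 96 groups examined (48 genes, 2 genotypes), meaning that its gap to the nearest library passed the Dixon 95% limit for 4 samples. Chance flags about 5% of such groups, and the 48 genes share their libraries. The share flagged over all genes was not computed, so the flags are not shown to be particular to the 48 genes. Mutant 4 was above mutants 1 to 3 for 34.6% of all genes and below them for 36.3%. In 7 of the 13, mutant 4 was the highest mutant. These were Ccnb2 at 8.06 CPM (other mutants 4.27 to 4.92), Incenp at 27.7 CPM (21.3 to 22.2), Birc5 at 8.97 CPM (5.21 to 5.37), Bub1b at 14.0 CPM (8.24 to 8.44), Ube2c at 11.0 CPM (6.42 to 7.03), Espl1 at 9.89 CPM (7.33 to 7.68) and Hmmr at 6.37 CPM (4.33 to 4.49). Plk4 was flagged for mutant 2, the lowest mutant at 6.32 CPM, below 6.82 to 6.87 CPM in the others.

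Among wild types, replicate 4 was far above the others for Hmmr at 6.52 CPM (5.01 to 5.19), Kif20a at 7.49 CPM (6.68 to 6.77) and Anln at 7.67 CPM (6.16 to 6.29). Aspm was highest in wild type 1, at 12.05 CPM against 9.67 to 9.80 CPM, and Smc2 lowest in wild type 3, at 25.8 CPM against 30.1 to 30.5 CPM.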

How the results depend on the processing

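The number of genes called over the whole table depended on the setting. It was 4 with all 8 libraries and edgeR, 406 with DESeq2, 121 with the library set as a term, 16 and 10 with limma on TPM (pseudocount 0.1 and 0.5), 13 without a filter and 20 with the replicate number as a block. Leaving out each library gave 3 to 720 genes, with 720 without mutant 4 and 13 without wild type 1. Of the 48 genes, DESeq2 called 1 lower, and leaving out each library gave 0 to 16 lower and 0 higher. Of the 104 other mitotic genes 0 to 11 were called, and both highest counts came without mutant 4. The median log2 fold change stayed between -0.36 (without mutant 4) and -0.15 (without mutant 2) on leaving out a library, with 44 to 47 genes below 0. The fold of Incenp turned to 0.049 and that of Cenpa to 0.072 with the library set as a term, and Incenp was at 0.00038 and 0.00051 with limma on TPM. In the last 100 bases before the start, 9 of 41 promoters held TTTGAA (5.91% of all promoters), 25 held CCAAT (19.6%) and 7 held both (1.08%).

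Whether the replicate numbers pair the libraries was not settled. Deviations of same-numbered libraries from their genotype means correlated at 0.24, -0.03, -0.08 and 0.32, and 2 of 4 correlated best with their own number. These deviations still hold the library sets, in which mutant 4 and wild type 1 each stand apart from their genotype, so the check cannot decide. With the replicate block, 0 of the 48 genes were called and 47 were below 0. Mutant libraries are shallower, which limits genes of few reads.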
